A study of Mus musculus with 4 samples.

Results

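The transcripts of the IL-1 family and of the inflammasome were followed in single cells of mouse liver. A fixed list of 10 genes was taken by symbol from the 32285 genes measured, and all 10 were found: the ligands Il1a, Il1b, Il18 and Il1f9, the receptor antagonist Il1rn, the receptors Il1r1 and Il1r2, and the inflammasome genes Nlrp3, Casp1 and Gsdmd. Male C57BL/6J mice formed 3 groups. The NCD group (1 library) ate normal chow and the HFD group (2 libraries, replicates 1 and 2) ate a diet with most of its energy from fat, and both received distilled water by mouth. The JQF group (1 library) ate the same high-fat diet and was then given Jiangtang Qingre Formula, a herbal formula prepared from granules and a decocted ingredient, by mouth. NCD and JQF had no replicate, so the spread between libraries was known for HFD alone and every p-value assumes that the other groups varied in the same way. The question was how these genes differed with the diet (HFD against NCD) and with the formula given on top of it (JQF against HFD) in each liver cell type.

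IL-1α and IL-1β are agonists that signal through the receptor encoded by Il1r1 and start a cascade that raises chemokines and draws in neutrophils. The antagonist encoded by Il1rn occupies the same receptor without signalling, and the decoy receptor encoded by Il1r2 binds the agonists without signalling. IL-1β and IL-18 are made as precursors that caspase-1 cuts after NLRP3 has assembled an inflammasome, and gasdermin D then forms the pores through which they leave the cell. In fatty liver disease this system is studied mainly in Kupffer cells, recruited monocytes and neutrophils. A transcript level says nothing of cleavage or secretion.

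After cells under 500 genes or over 20% mitochondrial UMIs were removed, 31290 cells remained. NCD gave 5975 of them, HFD replicate 1 gave 6516, HFD replicate 2 gave 10259 and JQF gave 8540. A UMI is the tag of 1 captured RNA molecule. Each cell was assigned to a type by marker genes that include none of the 10 genes, and 28382 cells (90.7%) received a type. In NCD, HFD replicate 1, HFD replicate 2 and JQF there were 97, 468, 509 and 434 neutrophils, and 60, 750, 1168 and 529 monocytes. In the same order there were 160, 567, 2371 and 422 macrophages, 96, 804, 780 and 776 dendritic cells (DC), and 3664, 107, 1175 and 596 endothelial cells. Type 17 T cells, T cells with at least 5 of their own markers such as Il17a, numbered 10, 89, 65 and 154. Between 3 and 7 markers of the type itself and 0 markers of another type stood among the 10 leading genes of each of these 6 types, and Il1f9 was itself among those of neutrophils. GEO's labels call the cells immune cells and a hematopoietic stem cell line, whereas endothelial cells and hepatocytes were present in each library. The libraries shared 101 barcodes among kept cells.

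The NCD library stood apart in depth. Its median was 13081 UMIs per cell, against 7608 to 8884 in the others, and 10.5% of its UMIs lay outside called cells, against 6.68% to 7.74%. The immediate early gene Fos was at 2025 CPM (UMIs per 1000000 UMIs of the cell type in the library) in NCD macrophages. It was at 1072 and 1906 CPM in HFD and 2807 CPM in JQF macrophages, and at 5121 CPM in NCD DC against 1332 and 2901 CPM in HFD. Fos in monocytes was at 8344 CPM in NCD, 4980 and 5300 CPM in HFD and 5599 CPM in JQF. Endothelium had 1130 CPM of it in NCD, 341 and 422 CPM in HFD and 382 CPM in JQF. Neutrophils had 6568 CPM in NCD, 4991 and 5369 CPM in HFD and 5458 CPM in JQF. The heat shock gene Hspa1a was higher in NCD than in the other 3 libraries in the 5 tested types, with 1722 CPM in macrophages against 476 and 531 CPM in HFD, and 2330 CPM in DC against 1120 and 1126 CPM. In neutrophils it was at 366 CPM in NCD and at 292 and 148 CPM in HFD. Their part in the differences between HFD and NCD below was not tested.

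In the genome (GRCm38, GENCODE M21) most ligand genes lie on chromosome 2. Il1a at chr2:129299610-129309972 and Il1b at chr2:129364570-129371139 lie on the minus strand, and Il1f9 at chr2:24186476-24193568 and Il1rn at chr2:24336853-24351494 lie on the plus strand. Il1r2 is at chr1:40074079-40125231 and Il1r1 at chr1:40225080-40317257. Il18 is at chr9:50554827-50581840, Casp1 at chr9:5298517-5307265, Nlrp3 at chr11:59541568-59566956 and Gsdmd at chr15:75862327-75867408. Il1a, Il1b, Il18 and Il1r2 are each overlapped by a gene on the opposite strand, and the largest of these counts was 2327 UMIs over all cells, for Gm14023 at Il1a. Whether the counting used the strand was not given in the sources used here.

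Promoters are shown for the 4 chromosome 2 genes because Il1a and Il1b went one way with the diet and Il1rn and Il1f9 the other in neutrophils. The Il1a difference there came from few cells, as described below. Each sequence is the 250 bases before a RefSeq transcript start (GRCm38.p6), 5′ to 3′ on the gene's strand. Capitals mark matches to 4 patterns searched on both strands: a loose NF-κB pattern (GGG, then 5 bases of any kind, then CC), an AP-1 pattern (TGANTCA), a pattern of the myeloid factor PU.1 (GAGGAA) and a TATA box (TATAAA).
Il1b, chr2:129371140-129371389, minus strand: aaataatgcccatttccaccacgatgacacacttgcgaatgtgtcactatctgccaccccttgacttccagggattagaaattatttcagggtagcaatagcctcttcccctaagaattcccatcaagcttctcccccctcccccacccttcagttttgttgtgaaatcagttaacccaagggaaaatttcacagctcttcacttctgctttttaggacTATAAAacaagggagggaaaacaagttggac
Il1a, chr2:129309973-129310222, minus strand: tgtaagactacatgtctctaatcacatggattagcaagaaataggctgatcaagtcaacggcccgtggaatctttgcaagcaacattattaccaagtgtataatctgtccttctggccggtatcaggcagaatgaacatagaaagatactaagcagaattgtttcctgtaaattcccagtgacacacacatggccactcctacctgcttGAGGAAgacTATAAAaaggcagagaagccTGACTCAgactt
Il1rn, chr2:24336610-24336859, plus strand: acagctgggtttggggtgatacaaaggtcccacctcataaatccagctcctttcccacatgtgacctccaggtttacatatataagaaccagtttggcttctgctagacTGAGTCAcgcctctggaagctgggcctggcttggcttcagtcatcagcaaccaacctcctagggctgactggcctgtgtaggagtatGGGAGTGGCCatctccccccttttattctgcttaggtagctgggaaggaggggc
Il1f9, chr2:24186226-24186475, plus strand: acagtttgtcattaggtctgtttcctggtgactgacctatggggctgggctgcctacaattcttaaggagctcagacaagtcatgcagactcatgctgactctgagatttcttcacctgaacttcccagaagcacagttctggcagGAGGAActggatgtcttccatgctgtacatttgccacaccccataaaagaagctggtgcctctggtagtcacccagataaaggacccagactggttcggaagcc
The capitals are the TATA match in Il1b, and the PU.1, TATA and AP-1 matches in that order in Il1a. In Il1rn they are the AP-1 match and then the loose NF-κB match, and in Il1f9 the PU.1 match. Il1rn has further RefSeq starts, with windows at chr2:24345041-24345290 and chr2:24345121-24345370 that are not shown. The latter window held a loose NF-κB match at bases -51 to -42. Which start these cells used was not tested. The TATA match lay at bases -31 to -26 in Il1b and -32 to -27 in Il1a. Such matches are common: of 32851 mouse promoter sequences, the 250 bases before the start held the loose NF-κB pattern in 45.8%, the PU.1 pattern in 23.3%, the TATA box in 12.4% and the AP-1 pattern in 6.75%. They are descriptions of sequence and not binding sites.

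Each gene had its own place among the cell types. Neutrophils held 77.5% to 82.0% of all Il1f9 UMIs in each library, and 37.3% to 65.6% of those of Il1r2. Il1b was spread over neutrophils (23.9% to 48.2% of its UMIs), monocytes (7.54% to 33.4%), DC (8.06% to 18.9%) and macrophages (3.33% to 17.2%). Il1r1 came from endothelium (29.9% to 92.1%) and from type 17 T cells (1.66% to 36.4%). The main source of Il1a differed between the groups, with 93.4% of its UMIs in NCD endothelium and 58.0% and 73.2% in HFD macrophages. In JQF 27.9% lay in endothelium, 24.9% in macrophages and 20.5% in monocytes. These shares depend on how many cells of each type a library held.

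**Figure D1:**
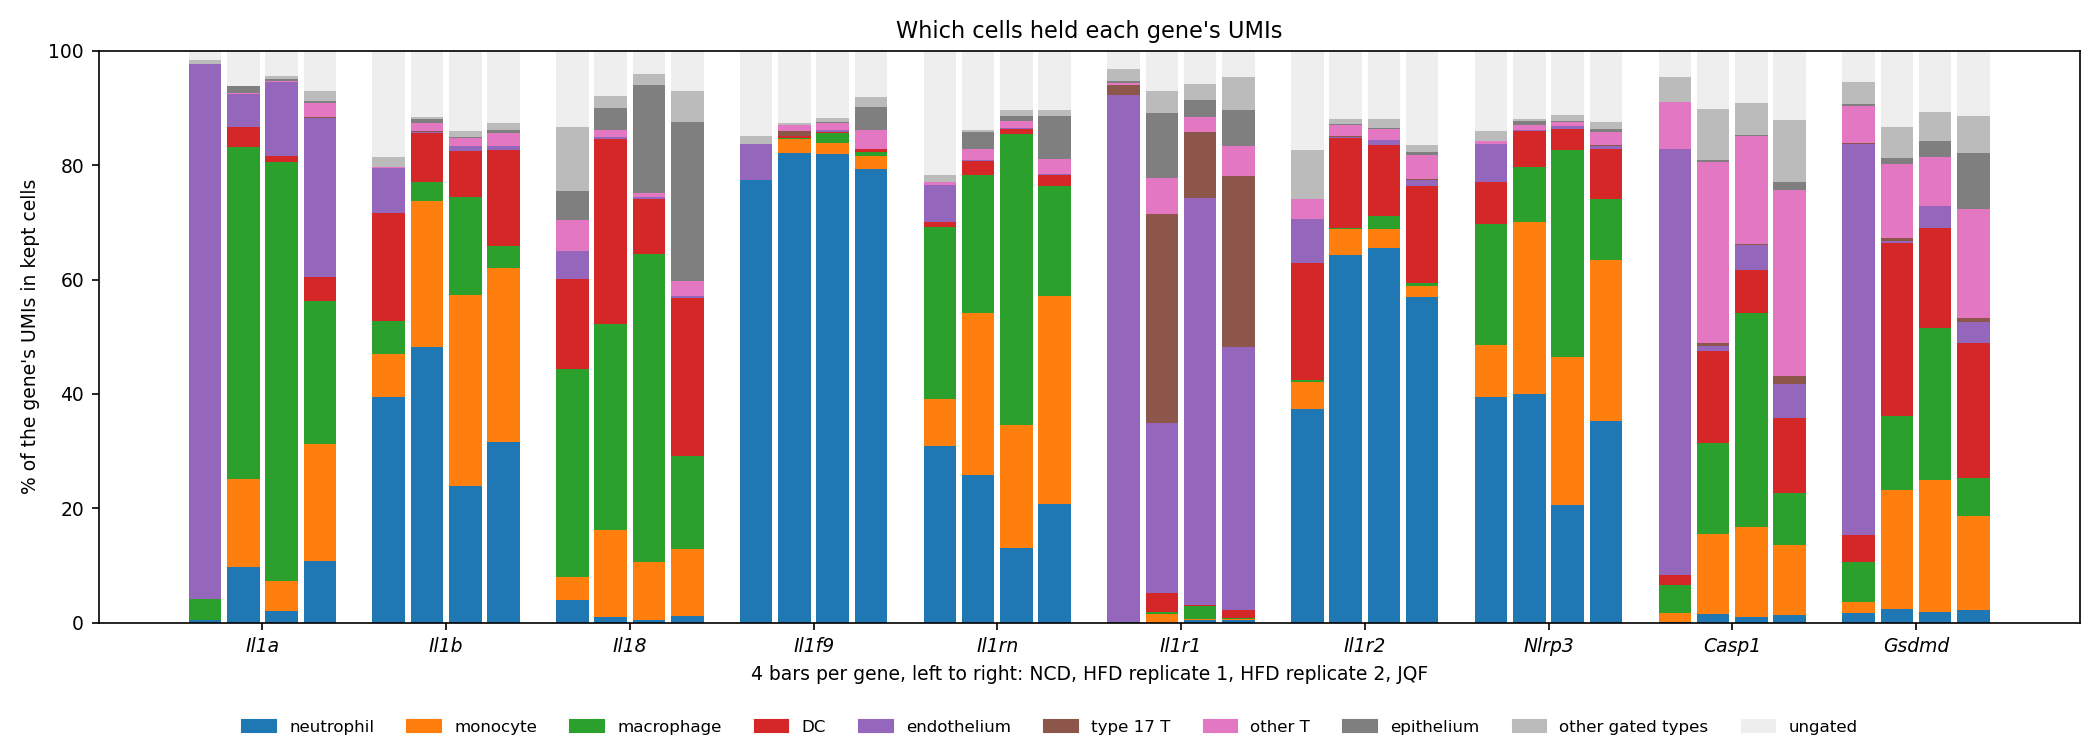
Stacked bars of the share (%) of each gene's UMIs in kept cells that lay in each cell type, with 4 bars per gene in the order NCD, HFD replicate 1, HFD replicate 2 and JQF. Neutrophils fill most of the Il1f9 bars (77.5% to 82.0%), and endothelium fills 93.4% of the NCD bar of Il1a.

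Summed over all kept cells the order of the groups was not that within a cell type. Il1b was lowest in NCD over all cells, at 270 CPM against 345 and 588 CPM in HFD and 491 CPM in JQF, although NCD was the highest library in neutrophils, monocytes, macrophages and DC. Il1rn stood at 7.39 CPM in NCD and at 85.4, 121 and 70.2 CPM in the HFD libraries and JQF, and Il18 at 3.73, 29.0, 51.8 and 18.8 CPM in the same order. In NCD, endothelial cells made up 3664 of the 5975 cells. The comparisons below are therefore made within cell types.

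**Figure D2:**
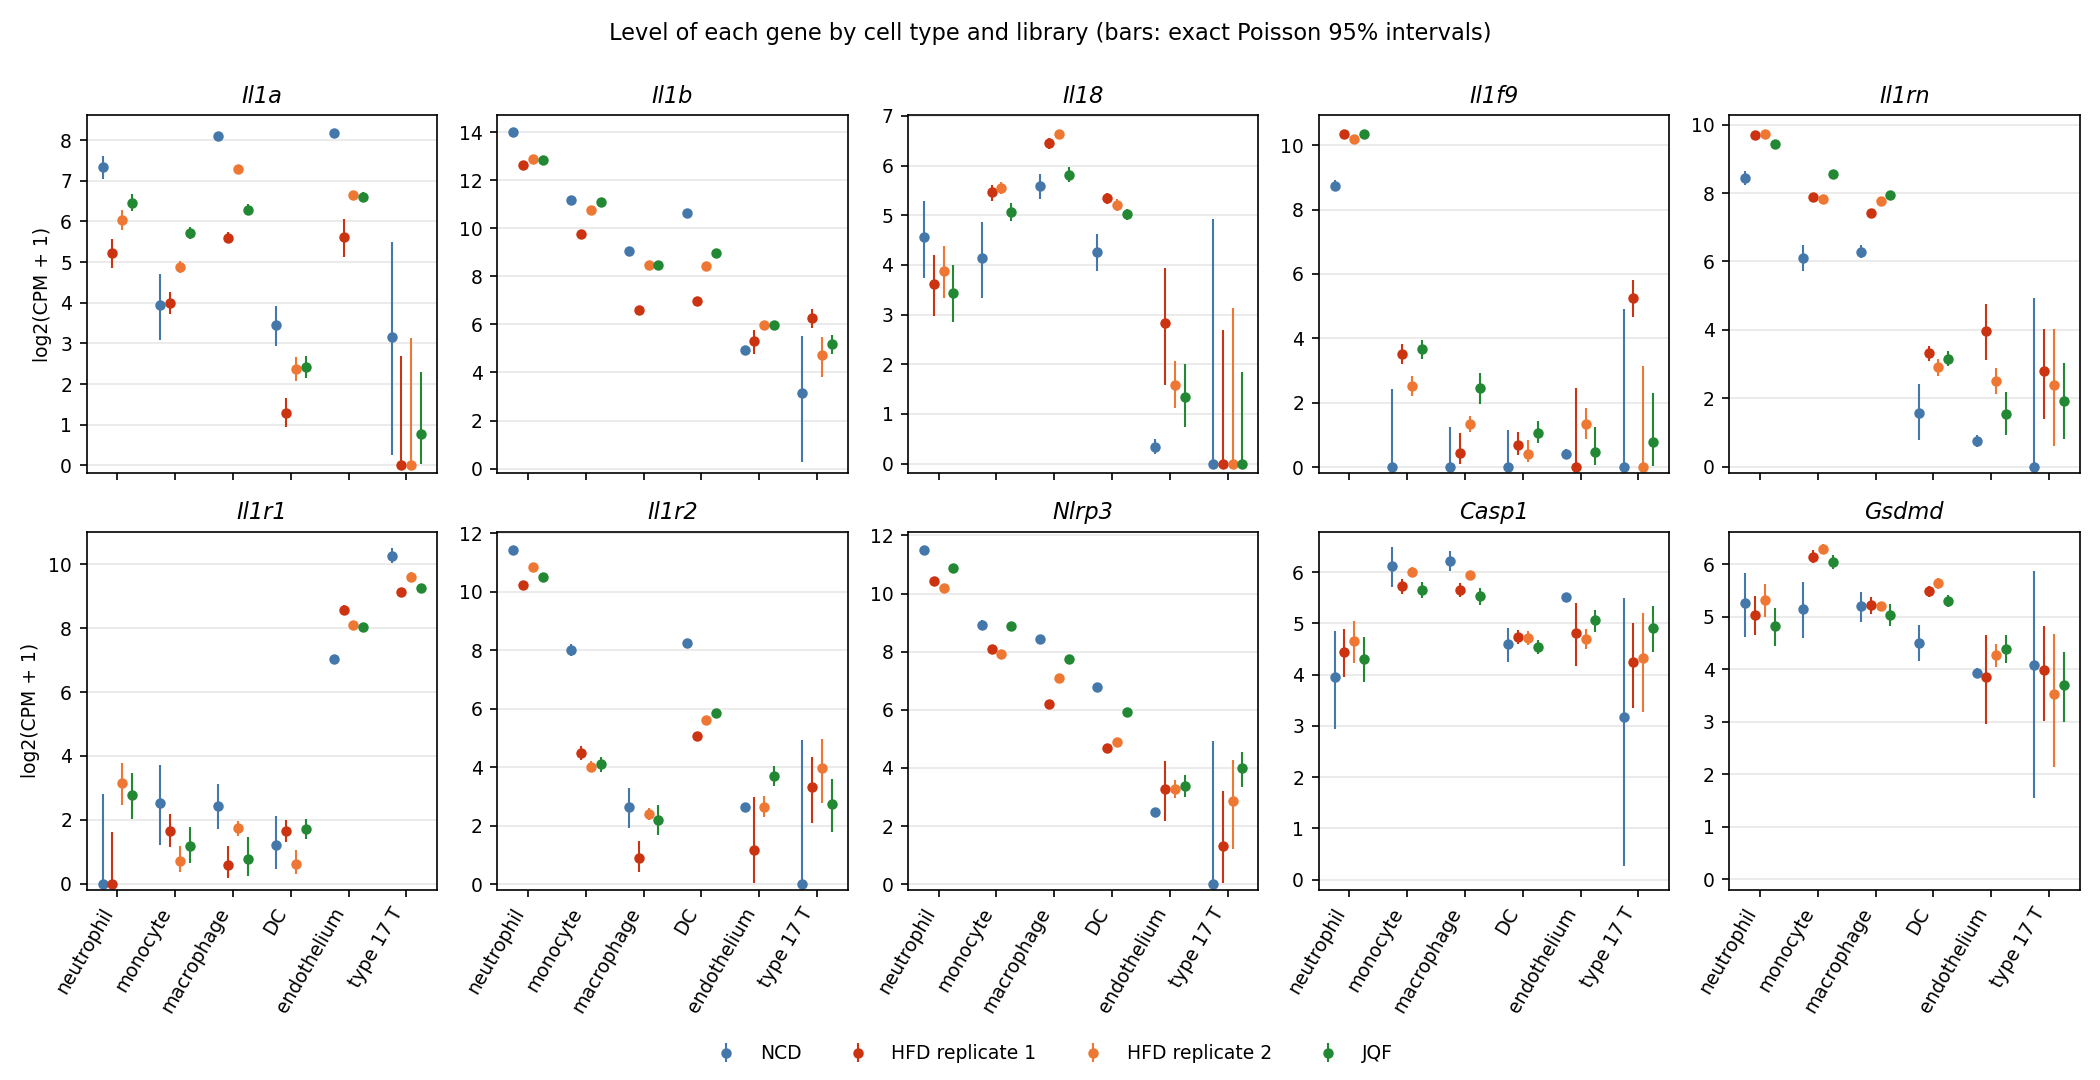
Level of each gene, as log2(CPM + 1), in 6 cell types (horizontal axis) and 4 libraries (colours), with exact Poisson 95% intervals of the counts. NCD is the highest library for Il1b in neutrophils, monocytes, macrophages and DC, and the lowest for Il1rn in every type shown.

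Il1b, the inducible agonist, was lower in HFD than in NCD in neutrophils and DC. In neutrophils it was at 16259 CPM in NCD, 6289 CPM in HFD replicate 1, 7454 CPM in HFD replicate 2 and 7279 CPM in JQF. The NCD library lay above the other 3, which lay close together. The HFD mean was 6872 CPM ± 824 (SD, n = 2), and edgeR's quasi-likelihood test gave a log2 fold change of -1.29 ± 0.24 (SE) with an adjusted p of 5.5e-06. Il1b was detected in 99.0% of NCD neutrophils and in 92.5% and 95.7% of HFD neutrophils, against 2.52% to 10.4% of T cells outside the type 17 gate, a type that should lack it. Median depth was 3341 to 5759 UMIs in neutrophils and 6514 to 10471 UMIs in those T cells.

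In DC, Il1b stood at 1584 CPM in NCD, 126 CPM in HFD replicate 1, 345 CPM in HFD replicate 2 and 498 CPM in JQF. The fitted difference between HFD and NCD was -2.84 ± 0.54 (log2) with an adjusted p of 0.021 in edgeR, and 0.13 in DESeq2. It was -3.80 without HFD replicate 2 and -2.28 without HFD replicate 1. All 3 DC subsets had the same order of NCD over HFD: type 1 DC were at 1589 CPM in NCD against 96.7 and 317 CPM, type 2 DC at 2291 CPM against 253 and 646 CPM, and mature DC at 684 CPM against 110 and 195 CPM. The NCD values came from 60, 21 and 14 cells. The HFD levels over all DC lay below those of Il1b in barcodes outside cells, which were 350 and 588 CPM, against 275 CPM in NCD. The summed level of 10 nonclassical monocyte markers in DC was 1390 CPM in NCD (1 marker at 0), 536 and 687 CPM in HFD and 758 CPM in JQF (0 at 0). The median DC held 3 of these markers in each library. Classical monocyte markers in DC summed to 229 CPM in NCD, 334 and 336 CPM in HFD and 301 CPM in JQF. The part of these markers in the DC differences in Il1b, Il1r2 and Nlrp3 was not tested.

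Monocytes and macrophages had the same order, with a wide spread in HFD. Monocyte Il1b was at 2289 CPM in NCD, 856 and 1714 CPM in HFD and 2183 CPM in JQF (log2 fold change of HFD against NCD -0.78 ± 0.39, adjusted p = 0.21). Classical monocytes had 3750 CPM in NCD against 734 and 1526 CPM in HFD, whereas nonclassical monocytes had 1747 CPM in NCD, between the HFD values of 1169 and 2053 CPM. Macrophage Il1b was at 534 CPM in NCD, 94.8 and 356 CPM in HFD and 352 CPM in JQF (-1.14 ± 0.77, adjusted p = 0.35), and both HFD values lay below the level outside cells. In endothelium it stood at 29.9 CPM in NCD and at 38.2 and 61.8 CPM in HFD, but 3 cells held 96.8% of its UMIs in HFD replicate 1, and all these levels lay below that of barcodes outside cells (275 to 589 CPM).

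Il1a, the agonist that is active as a precursor, was lower in HFD endothelium. It was at 290 CPM in NCD, 48.1 and 98.8 CPM in HFD and 95.7 CPM in JQF (log2 fold change of HFD against NCD -2.02 ± 0.24, edgeR adjusted p = 2.1e-13, DESeq2 adjusted p = 0.17). NCD lay above the other 3 libraries, 3.95-fold over the HFD mean and 3.03-fold over JQF, and HFD replicate 1 had 107 endothelial cells and 39 UMIs of Il1a. The fold change was -2.77 without HFD replicate 2. With Scrublet doublets removed, none of the 4 endothelial calls of HFD against NCD passed in edgeR, at adjusted p = 0.052 for Il1a, 0.17 for Il1rn, 0.073 for Il1r1 and 0.10 for Casp1, with the direction of each kept. The summed level of a list of 10 nonclassical monocyte markers moved with the group in endothelium. It was 383 CPM in NCD, 3257 and 2587 CPM in HFD and 1414 CPM in JQF. Of the 10 markers, 1 was at 0 in HFD replicate 1 and 0 were at 0 in the others. The median endothelial cell held 1 of them in each library, and which genes carried the sum was not examined. Classical monocyte markers summed to 14.7 CPM in NCD, 46.8 and 75.3 CPM in HFD and 40.1 CPM in JQF. Macrophage markers summed to 566 CPM in NCD, 291 and 624 CPM in HFD and 495 CPM in JQF. The part of these markers in the endothelial differences was not tested. In neutrophils Il1a was at 160 CPM in NCD, 36.4 and 64.9 CPM in HFD and 87.3 CPM in JQF, a change of -1.71 ± 0.34 (edgeR adjusted p = 3.7e-05). That difference came from few cells: 3 NCD neutrophils held 69.7% of the UMIs, and without the 3 highest cells of each library the levels were 50.1 CPM in NCD and 23.7 and 53.8 CPM in HFD, which overlap. Il1a in barcodes outside cells was at 155 CPM in NCD, about the neutrophil level, and at 16.3 and 54.5 CPM in HFD, and the part of this background was not tested. Macrophage Il1a was at 273 CPM in NCD against 47.6 and 156 CPM in HFD and 77.0 CPM in JQF, and did not pass (-1.32 ± 0.69, adjusted p = 0.25). Monocytes and DC had 12 and 30 UMIs of Il1a in NCD, and neither passed.

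The antagonist Il1rn was higher in HFD than in NCD in neutrophils and monocytes. In neutrophils it was at 348 CPM in NCD, 838 and 844 CPM in HFD (mean 841 ± 4.18, SD, n = 2) and 685 CPM in JQF. The 3 libraries on the high-fat diet lay at about 2 times the NCD level (2.42-fold for the HFD mean), and the test gave +1.22 ± 0.33 with an edgeR adjusted p of 0.0042. In monocytes it was at 68.1 CPM in NCD, 236 and 225 CPM in HFD and 374 CPM in JQF, with +1.80 ± 0.25 and an edgeR adjusted p of 0.0033. Within nonclassical monocytes, the patrolling subset, the levels were 21.3 CPM in NCD (44 cells) against 227 and 220 CPM in HFD. Within classical monocytes, the recruited subset, they were 194 CPM in NCD (16 cells) against 239 and 228 CPM, a smaller gap. Nonclassical cells made up 73.3% of NCD monocytes and 34.4% and 39.6% of HFD monocytes. Il1rn in barcodes outside cells was also higher in HFD, at 120 and 139 CPM against 8.37 CPM in NCD, and its part in these differences was not tested.

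Il1rn was also higher in HFD macrophages, at the edge of the test. Its levels were 77.3 CPM in NCD, 170 and 217 CPM in HFD and 244 CPM in JQF (+1.41 ± 0.25, edgeR adjusted p = 0.051, DESeq2 adjusted p = 0.0027). The subsets differed in this: Kupffer cells, the resident macrophages, were at 78.7 CPM in NCD and at 64.9 and 155 CPM in HFD, which overlap. Lipid-associated macrophages, marked by Trem2 and Gpnmb, were at 233 and 360 CPM in HFD, and NCD had 4 such cells. They made up 54.7% and 29.2% of the HFD macrophages. In DC (1.98 CPM in NCD, 9.002 and 6.47 CPM in HFD) and endothelium (0.672 CPM in NCD, 14.8 and 4.69 CPM in HFD) Il1rn also passed, with +1.85 ± 0.47 (adjusted p = 0.045 in edgeR and 0.23 in DESeq2) and +3.42 ± 0.97 (adjusted p = 0.0054 in edgeR and 0.035 in DESeq2). Both types lay far below the level in barcodes outside cells, which was itself 8.37 CPM in NCD and 120 and 139 CPM in HFD, and all 12 endothelial UMIs of HFD replicate 1 came from 3 cells. Kupffer cells of HFD replicate 1 also lay below the level outside cells, and the part of this background in the macrophage difference was not tested.

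Antagonist and agonist transcripts can be set against each other within a library. There were 2.14 Il1rn UMIs per 100 Il1b UMIs in NCD neutrophils, 13.3 and 11.3 in HFD neutrophils and 9.41 in JQF neutrophils. In monocytes the ratios were 2.98, 27.5, 13.2 and 17.1 in the same order of libraries, and in macrophages 14.5, 179, 60.9 and 69.3. DC had the lowest ratios, 0.125, 7.13, 1.88 and 1.59. In each of these 4 types NCD was the lowest library and its 95% counting interval did not overlap those of the others. The HFD libraries lay outside each other's intervals in each of these types, so the counting intervals understate the spread between libraries. Barcodes outside cells had the same order of NCD below the others, with 46 Il1rn and 1511 Il1b UMIs in NCD, 503 and 1463 in HFD replicate 1, 1051 and 4458 in HFD replicate 2, and 360 and 2745 in JQF, and the part of this background in the ratios was not tested.

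**Figure D3:**
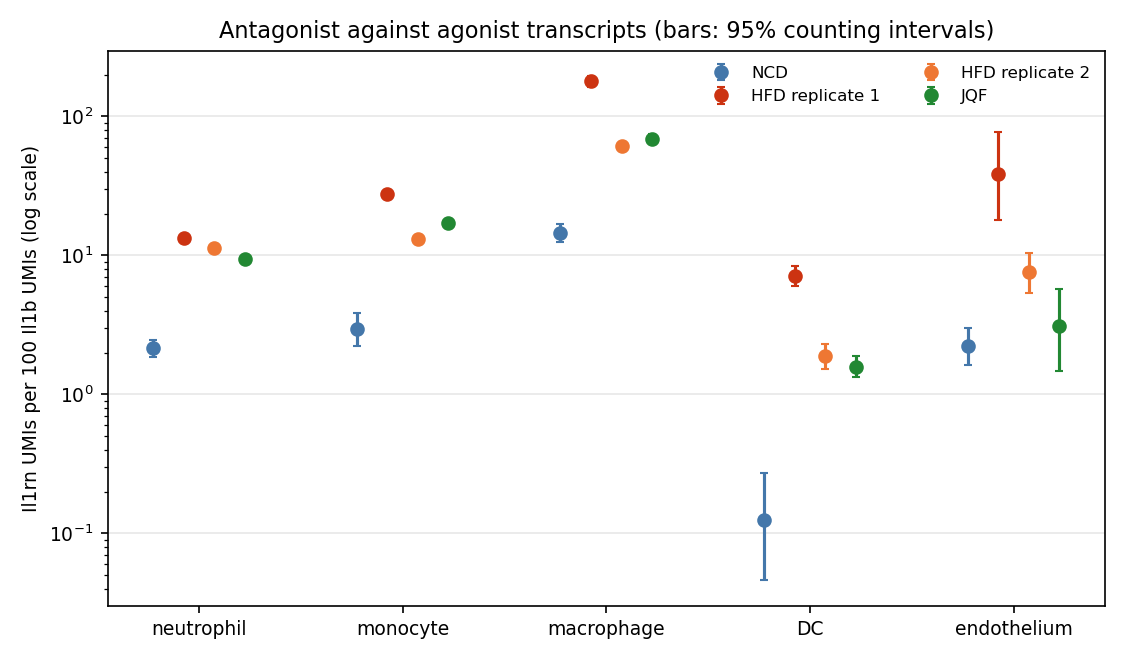
Il1rn UMIs per 100 Il1b UMIs on a log axis in 5 cell types, 1 point per library with its 95% counting interval. NCD is the lowest library in every type, from 0.125 in DC to 14.5 in macrophages, and its interval overlaps that of JQF in endothelium.

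Il1f9, which encodes an agonist of a related receptor (IL-36γ), was higher in HFD neutrophils. It was at 429 CPM in NCD, 1311 and 1182 CPM in HFD and 1292 CPM in JQF, so that the 3 libraries on the high-fat diet lay together near 3 times the NCD level (2.91-fold for the HFD mean). The test gave +1.49 ± 0.33 (edgeR adjusted p = 0.00018). It was detected in 59.8% of NCD neutrophils and in 70.7% and 77.2% of HFD neutrophils although the NCD cells were deeper, and at 1000 UMIs per cell in 28.9%, 48.1% and 56.3%. At most 0.649% of T cells outside the type 17 gate had a UMI of it. The neutrophil alarmin gene S100a8 was also higher in HFD, at 7706 CPM in NCD and 21953 and 26815 CPM in HFD. In JQF it was at 15368 CPM, below both HFD libraries, unlike Il1f9. Another neutrophil gene, Retnlg, was at 2516 CPM in NCD, 1924 and 2246 CPM in HFD and 2298 CPM in JQF. The part of neutrophil state in these differences was not tested. NCD had no Il1f9 UMI in monocytes, macrophages or DC. In monocytes HFD had 10.4 and 4.77 CPM of Il1f9, which did not pass (adjusted p = 0.068), and 3 cells held 90.3% and 57.6% of those UMIs.

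Il18, a ligand with a caspase-1 site and steady transcription, was higher in HFD in monocytes, macrophages and DC. Macrophages had 47.1 CPM in NCD, 86.5 and 98.2 CPM in HFD and 55.5 CPM in JQF (+1.06 ± 0.19, adjusted p = 0.05 in edgeR, at the threshold, and 0.11 in DESeq2). JQF lay near NCD there. In Kupffer cells alone the levels were 49.4 CPM in NCD, 132 and 120 CPM in HFD and 74.4 CPM in JQF. Monocytes had 16.7 CPM in NCD against 43.0 and 45.9 CPM in HFD (+1.45 ± 0.32, adjusted p = 0.018 in edgeR and 0.14 in DESeq2). In classical monocytes the levels were 44.1 CPM in NCD and 46.7 and 49.4 CPM in HFD, close together, and in nonclassical monocytes 6.55 CPM in NCD and 33.5 and 39.5 CPM in HFD. DC had 18.2 CPM in NCD against 39.6 and 36.1 CPM (+0.95 ± 0.18, adjusted p = 0.02 in edgeR and 0.21 in DESeq2), and type 1 DC had the highest levels among DC (58.9 and 52.4 CPM in HFD). Il18 in barcodes outside cells was also higher in HFD, at 28.9 and 64.4 CPM against 6.55 CPM in NCD, and its part in these differences was not tested. Epithelial cells of HFD replicate 2 reached 212 CPM of Il18, with 29.1 CPM in NCD, 20.6 CPM in HFD replicate 1 and 48.2 CPM in JQF.

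The signalling receptor Il1r1 was high in type 17 T cells, endothelium and stellate cells, and was at most 7.87 CPM in neutrophils, monocytes, macrophages and DC. In type 17 T cells it was at 1242 CPM in NCD, 557 and 781 CPM in HFD and 619 CPM in JQF, and no test was run because NCD had 10 such cells, of which 3 held 72.4% of the UMIs. It was detected in 71.9% and 89.2% of HFD type 17 T cells and in 1.497% and 1.40% of the other T cells. In endothelium it was at 129 CPM in NCD, 378 and 271 CPM in HFD and 259 CPM in JQF. The 3 libraries on the high-fat diet lay at 2 to 3 times the NCD level, and the test of HFD against NCD gave +1.15 ± 0.26 (edgeR adjusted p = 0.00021, DESeq2 adjusted p = 0.0097), and an edgeR adjusted p of 0.073 with Scrublet doublets removed. In HFD replicate 1, 3 cells held 40.4% of the UMIs, and without the 3 highest cells of each library the levels were 125 CPM in NCD and 235 and 260 CPM in HFD. Stellate cells and fibroblasts had 314 CPM in NCD and 169 CPM in HFD replicate 2, from 32 and 40 UMIs, and 78.1 CPM in JQF. Hepatocytes had 74.7 CPM in NCD, 23.0 and 15.4 CPM in HFD and 140 CPM in JQF, where 3 cells held 71.6% of the UMIs. The level outside cells was 69.3 CPM in NCD and 16.0 CPM in HFD replicate 2, about that of hepatocytes. It was 7.89 CPM in HFD replicate 1 and 23.9 CPM in JQF, below that of hepatocytes. Epithelial cells had 38.8 CPM in NCD, 31.7 and 19.3 CPM in HFD and 16.1 CPM in JQF. Neutrophils had no Il1r1 UMI in NCD or in HFD replicate 1.

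The decoy receptor Il1r2 was lower in HFD in neutrophils and DC. Neutrophils had 2727 CPM in NCD, 1191 and 1852 CPM in HFD and 1449 CPM in JQF (-0.89 ± 0.28, adjusted p = 0.018 in edgeR, and 0.05 in DESeq2, which did not call it). DC had 305 CPM in NCD, 32.8 and 48.2 CPM in HFD and 56.1 CPM in JQF. The difference in DC was -3.01 ± 0.26 with an edgeR adjusted p of 0.0044 and a DESeq2 adjusted p of 2.9e-15. It was largest in level in type 2 DC, with 945 CPM in NCD against 80.1 and 164 CPM in HFD. Monocytes had 256 CPM in NCD against 21.4 and 15.2 CPM in HFD (-3.79 ± 0.22, edgeR adjusted p = 0.00011), but 3 NCD cells held 94.9% of the UMIs. Without the 3 highest cells of each library the monocyte levels were 14.5 CPM in NCD and 16.1 and 13.5 CPM in HFD. The monocyte call therefore rests on 3 cells. Hepatocytes, which were not tested, had 295 CPM in NCD and 4.17 and 3.74 CPM in HFD, and 3 NCD cells held 94.5% of the UMIs.

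Nlrp3, the inflammasome sensor, was lower in HFD than in NCD in neutrophils, monocytes and DC. Neutrophils had 2879 CPM in NCD, 1391 and 1168 CPM in HFD and 1863 CPM in JQF (-1.22 ± 0.28, edgeR adjusted p = 0.00038). Monocytes had 489 CPM in NCD, 270 and 240 CPM in HFD and 466 CPM in JQF (-0.90 ± 0.22, adjusted p = 0.024). Both monocyte subsets had that order, with 609 CPM in NCD against 266 and 256 CPM in classical cells and 444 CPM against 279 and 209 CPM in nonclassical cells. DC had 109 CPM in NCD, 24.4 and 28.4 CPM in HFD and 59.9 CPM in JQF (-2.15 ± 0.17, adjusted p = 0.0038 in edgeR and 6.5e-08 in DESeq2). Macrophages had 348 CPM in NCD, 72.5 and 135 CPM in HFD and 216 CPM in JQF, which passed in DESeq2 (adjusted p = 0.00076) and not in edgeR (-1.65 ± 0.40, adjusted p = 0.075). In these 4 types JQF lay between HFD and NCD. Endothelial levels were 4.52 to 9.36 CPM, below the 31.8 to 86.6 CPM of barcodes outside cells. DC in HFD and JQF also lay below the level outside cells, which was 86.6 and 86.5 CPM in HFD and 76.4 CPM in JQF, as did macrophages of HFD replicate 1.

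Casp1 and Gsdmd encode the protease and the pore former, and passed in 1 and 2 of the 5 types. Casp1 was lower in HFD endothelium, with 44.7 CPM in NCD, 27.1 and 24.97 CPM in HFD and 32.3 CPM in JQF (-0.95 ± 0.27, adjusted p = 0.0063 in edgeR and 0.40 in DESeq2). Barcodes outside cells had 36.0 CPM of Casp1 in NCD, 39.45 and 51.2 CPM in HFD and 26.55 CPM in JQF. Both HFD values in endothelium lay below that level, and the part of this background was not tested. In neutrophils, monocytes, macrophages and DC the log2 fold changes of Casp1 ran from -0.33 to 0.57 and none passed. Gsdmd was higher in HFD DC, at 43.9 and 49.0 CPM against 21.8 CPM in NCD and 38.5 CPM in JQF (+0.99 ± 0.20, adjusted p = 0.025 in edgeR and 0.15 in DESeq2). It was also higher in HFD monocytes, at 69.8 and 77.4 CPM against 34.7 CPM in NCD and 65.0 CPM in JQF (+1.13 ± 0.27, adjusted p = 0.026 in edgeR and 0.15 in DESeq2). Barcodes outside cells had 15.8 CPM of Gsdmd in NCD and 44.0 and 43.3 CPM in HFD, and the part of this background was not tested. In classical monocytes, however, the values were 61.8 CPM in NCD and 64.7 and 72.0 CPM in HFD, and in nonclassical ones 24.6 against 82.9 and 87.2 CPM. Macrophages had 35.7 CPM in NCD and 36.4 and 35.9 CPM in HFD.

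Counted over the 10 genes, HFD against NCD passed for 6 in neutrophils (2 higher, 4 lower), where 11.2% of all genes tested passed. In monocytes 5 passed (3 higher, 2 lower) against 14.9% of all genes, and in macrophages 1 (higher) against 7.38%. In DC 6 passed (3 higher, 3 lower) against 19.0%, and in endothelium 4 (2 higher, 2 lower) against 15.6%. All 10 genes met the count filter in each of these types, so no gene was lost to it. DESeq2 called 5, 3, 2, 2 and 2 genes in the same order of types. The median log2 fold changes of the 10 genes were -0.51, 0.24, -0.56, -0.04 and 0.74, beside medians over all genes tested of 0.12, 0.16, 0.06, 0.12 and 0.01. Scaling by library totals in place of TMM factors moved the median of all genes by 0.11 in DC and 0.15 in endothelium. It turned the direction of none of the 22 calls and took the macrophage Il18 call below the threshold. The counts include calls that rest on few cells, Il1a in neutrophils and Il1r2 in monocytes. Without the 3 highest cells of each library their log2 ratios of HFD to NCD were -0.37 and 0.03. The monocyte calls of Il1rn, Il18 and Gsdmd had log2 ratios of 0.27, 0.12 and 0.15 in classical cells and 3.39, 2.48 and 1.79 in nonclassical cells.

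**Figure D4:**
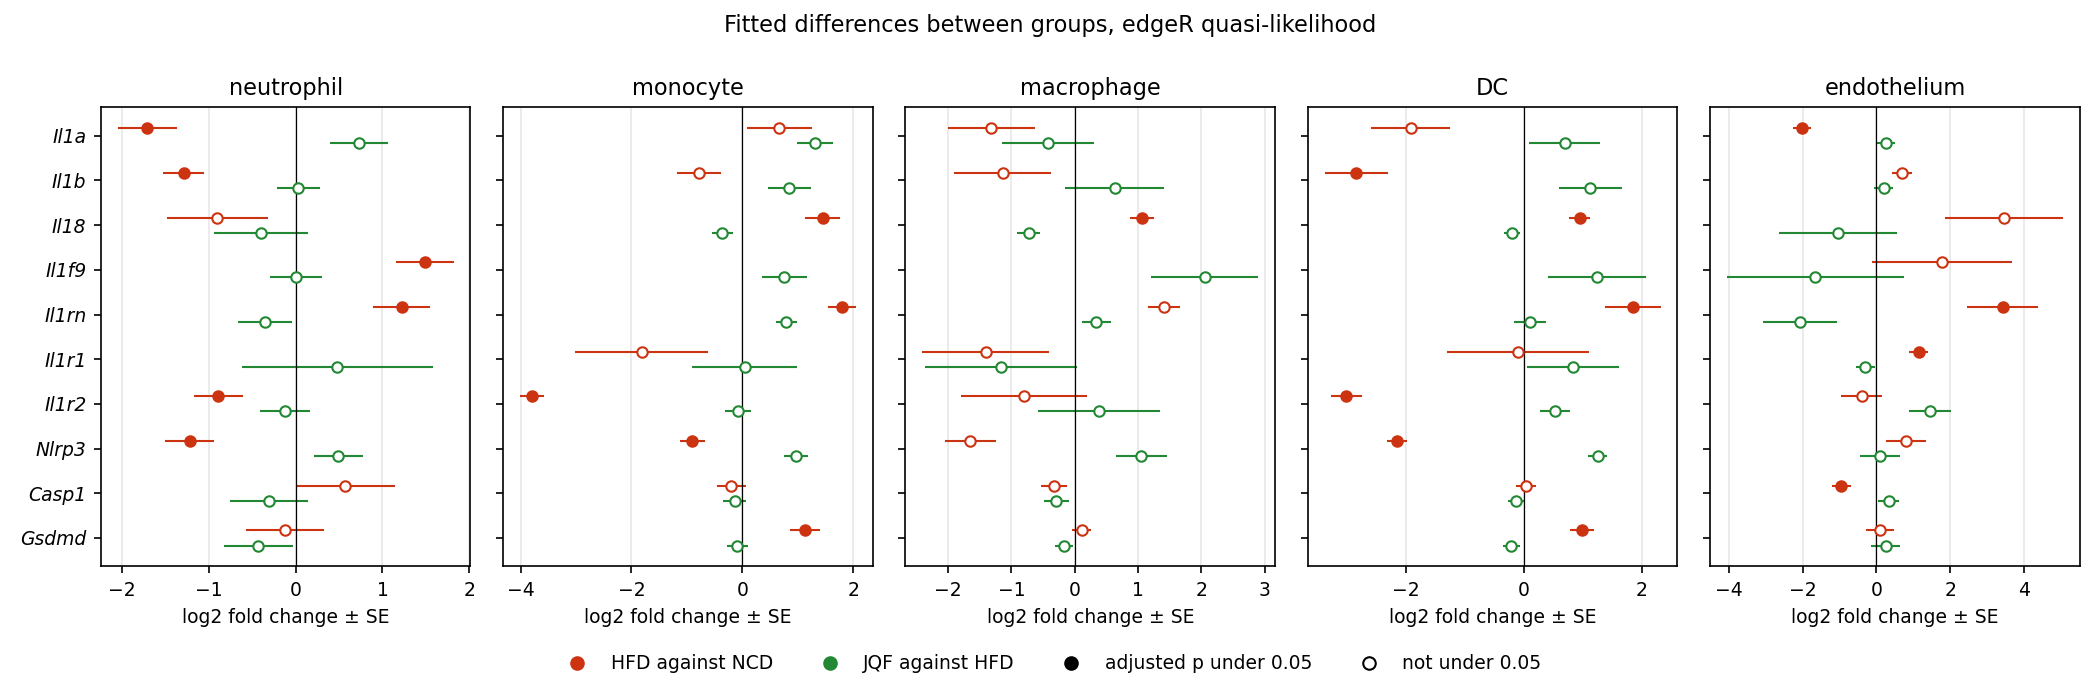
Fitted log2 fold changes with standard errors (horizontal axis, own range in each panel) for the 10 genes in 5 cell types, with HFD against NCD in red and JQF against HFD in green. Filled points passed an adjusted p of 0.05, and none of the green points is filled. Red points are left out where NCD had 3 or fewer UMIs.

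JQF did not differ from HFD past the threshold in any of the 10 genes in any of the 5 types by edgeR, or by DESeq2. In JQF against HFD, 0 of 10 genes passed in neutrophils, where 0.824% of all genes did, and 0 in monocytes (0.0562%), macrophages (0.00753%), DC (0.274%) and endothelium (1.41%). Of the 50 gene and type pairs, 8 had an unadjusted p under 0.05. The percentages above are for the adjusted p, and the share of all genes at the unadjusted one is not given here, so this count has no baseline. The pair nearest to the threshold was Nlrp3 in DC, at 59.9 CPM in JQF against 24.4 and 28.4 CPM in HFD (+1.25 ± 0.16, edgeR adjusted p = 0.06, DESeq2 adjusted p = 0.082), all 3 values below the level outside cells. Nlrp3 in monocytes was at 466 CPM in JQF against 270 and 240 CPM (+0.97 ± 0.21, adjusted p = 0.14), and Il1rn in monocytes at 374 CPM against 236 and 225 CPM (+0.79 ± 0.19, adjusted p = 0.18). Il1a in monocytes was at 51.7 CPM in JQF against 15.01 and 28.3 CPM (+1.31 ± 0.32, adjusted p = 0.19). In each case JQF lay above both HFD libraries. Il18 in macrophages lay below both, at 55.5 CPM against 86.5 and 98.2 CPM (-0.73 ± 0.18, adjusted p = 0.46). Il1b and Il1f9 in neutrophils lay within or next to the HFD range, with 0.03 ± 0.25 and 0.00 ± 0.30. JQF has a single library, and these comparisons share the HFD libraries with those above.

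A list of 68 other genes of the pathway was examined beside the 10: further ligands, receptors, sensors, caspases, signalling genes and genes that IL-1 is known to raise. In neutrophils 52 met the count filter, and in HFD against NCD 13 were higher and 2 lower (11.2% of all genes tested passed). Of the 13 IL-1 response genes tested there, 9 were higher and 0 lower (median log2 fold change 1.99, beside 0.12 for all genes). They include Lcn2, which is also a neutrophil marker of the gate. Of the 14 response genes tested in monocytes 5 were higher and 0 lower (14.9% of all genes passed). Of 14 in macrophages 0 were higher and 4 lower (7.38%). Of 13 in DC 1 was higher and 3 lower (19.0%), and of 12 in endothelium 7 were higher and 3 lower (15.6%). Classical monocyte markers in gated neutrophils summed to 581 CPM in NCD and 539 and 1659 CPM in HFD, and their part was not tested. DESeq2 called 9 of the listed genes in neutrophils, 6 of them IL-1 response genes, and gave no adjusted p for some, Ccl2, P2rx7 and Serpinb1a among them. Among the higher genes were Ccl2, a monocyte chemokine with 0 UMIs in NCD neutrophils and at least 2.2-fold higher in HFD, P2rx7, the ATP receptor that triggers NLRP3, with 0 UMIs in NCD and at least 1.75-fold higher, and Serpinb1a, a protease inhibitor, at 4.85 CPM in NCD (3 UMIs) against 29.7 and 81.6 CPM, 11.5-fold (95% counting interval 3.92 to 55.6). T cell markers in the gated neutrophils moved with P2rx7: the summed level of 10 markers was 17.8 CPM in NCD (4 markers at 0), 71.1 and 62.0 CPM in HFD and 272 CPM in JQF (0 at 0), and their part in its differences was not tested. The lower ones were Nlrp12, an inhibitory sensor (194 CPM in NCD, 59.9 and 77.2 CPM in HFD), and Il1rap, the co-receptor of Il1r1 (1251 CPM against 547 and 488 CPM).

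In macrophages 7 of 58 listed genes passed in HFD against NCD and all 7 were lower, where 7.38% of all genes passed. They included Il6 (105 CPM in NCD, 4.64 and 8.14 CPM in HFD), Tnf (583 CPM against 101 and 145 CPM) and Ccl2 (285 CPM against 59.8 and 70.0 CPM), cytokines of acute inflammation. Endothelial markers in the gated macrophages moved with the group. The summed level of 16 markers was 903 CPM in NCD, 163 and 367 CPM in HFD and 291 CPM in JQF, with 0 markers at 0. Their part in the macrophage differences was not tested. In monocytes 16 of 56 passed, 9 higher and 7 lower, beside 14.9% of all genes. Lcn2, an iron-binding protein and also a neutrophil marker of the gate, had 0 UMIs in NCD and was at least 1.72-fold higher in HFD (7.07 and 5.25 CPM). The neutrophil gene S100a8 in gated monocytes was at 0 CPM in NCD and 24.5 and 23.9 CPM in HFD. The part of neutrophil RNA in the Lcn2 difference was not tested. Ccl2 was at 53.8 CPM in NCD against 466 and 256 CPM, and the chemokine Cxcl1 at 10.8 CPM against 51.9 and 72.2 CPM. Those that fell most were the IL-18 receptor chains Il18r1 (25.1 CPM against 2.89 and 0.889 CPM) and Il18rap (26.3 CPM against 8.08 and 4.20 CPM), and Casp4, the caspase of the noncanonical inflammasome (529 CPM against 154 and 171 CPM).

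DC had 22 of 58 listed genes past the threshold, 6 higher and 16 lower, among them 7 of 15 signalling and feedback genes lower and 1 higher. Over all genes 19.0% passed in DC, 1129 of them higher and 1572 lower, and scaling by library totals moved the higher share of these calls from 41.8% to 53.9%. The lower ones were led by the alarmin Il33 (50.2 CPM in NCD, 7.56 and 3.71 CPM in HFD), Il1rap (78.5 CPM against 15.3 and 15.8 CPM) and Casp4 (154 CPM against 39.5 and 49.95 CPM). DESeq2 called 12 listed genes in DC. The 3 largest among the higher ones were Irak3, a brake on the receptor's signalling (0.33 CPM in NCD from 1 UMI, 3.88 and 3.64 CPM in HFD, 11.4-fold with a counting interval of 2.04 to 450), Tnf (35.0 CPM against 159 and 109 CPM) and Serpinb1a (4.62 CPM against 11.7 and 11.1 CPM). In endothelium 15 of 52 passed, 8 higher and 7 lower, beside 15.6% of all genes, and DESeq2 called 7. Il33 was at 4.94 CPM in NCD and 67.8 and 30.5 CPM in HFD, and Ptgs2, the inducible cyclooxygenase, at 1.39 CPM against 25.9 and 3.87 CPM. Lcn2 was at 0.164 CPM against 1.23 and 9.14 CPM. In HFD replicate 1 these values came from 21 UMIs of Ptgs2 and 1 UMI of Lcn2. The neutrophil gene S100a8 in endothelium was at 2.33 CPM in NCD and 2.46 and 11.7 CPM in HFD. The part of neutrophil RNA in the Lcn2 difference was not tested. Casp4 was at 353 CPM in NCD against 86.2 and 89.0 CPM, the chemokine Cxcl10 at 502 CPM against 158 and 170 CPM, and Nfkbiz, an NF-κB cofactor, at 449 CPM against 169 and 186 CPM. Casp4 was lower in HFD in monocytes, macrophages, DC and endothelium.

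In JQF against HFD 2 of 52 listed genes passed in neutrophils (0.824% of all genes), 0 of 56 in monocytes (0.0562%), 0 of 58 in macrophages (0.00753%), 3 of 58 in DC (0.274%) and 3 of 52 in endothelium (1.41%). DESeq2 called 0, 2, 5, 3 and 1 in the same order of types, so both neutrophil calls were lost with it. In monocytes and macrophages 16 and 15 listed genes had an unadjusted edgeR p under 0.05. The share of all genes tested with such a p is not given here, so these counts and those that follow have no baseline. The IL-1 response genes had a median log2 fold change of 1.28 in macrophages (7 of 14 with such a p), beside -0.02 for all genes. It was 0.61 in monocytes (8 of 14), 0.63 in DC (8 of 13), -0.16 in neutrophils (2 of 13) and -0.70 in endothelium (5 of 12). The 5 DESeq2 calls in macrophages were all among these genes. In JQF macrophages Il6, Tnf and Ccl2 were at 27.5, 300 and 158 CPM, above both HFD libraries. P2rx7 was higher in JQF neutrophils (45.7 CPM against 10.6 and 6.39 CPM in HFD, log2 fold change 2.37 ± 0.45, edgeR adjusted p = 7.4e-05), beside the T cell markers given above, and Serpinb1a lower (20.1 CPM against 29.7 and 81.6 CPM, -1.52 ± 0.42, adjusted p = 0.035). In JQF DC the chemokines Cxcl1 (16.9 CPM against 4.06 and 4.25 CPM) and Cxcl2 (144 CPM against 53.7 and 46.6 CPM) and the co-receptor Il1rap (46.8 CPM against 15.3 and 15.8 CPM) were higher. In JQF endothelium Ccl2 (6.68 CPM against 23.4 and 37.8 CPM), the leukocyte adhesion receptor Sele (12.6 CPM against 59.1 and 23.9 CPM) and Cxcl10 (64.2 CPM against 158 and 170 CPM) were lower, of which DESeq2 called Cxcl10, and 48 and 19 UMIs stood behind the Sele and Ccl2 values of HFD replicate 1.

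The genes whose levels ran most like each of the 10 were sought among 8711 genes over 20 profiles, 1 for each library and tested cell type, as Pearson correlations of log2(CPM + 1). The profiles share libraries, and most of their variation lies between cell types, so these values describe shared cell types. Nearest to Il1b were Pim1 (r = 0.982), Trib1 (0.968) and Gm26532 (0.965), and nearest to Il1rn were Lst1 (0.981), Cd300lb (0.973) and Clec4n (0.968). Il1f9 ran with Gm20406 (0.985), Chil1 (0.981) and S100a8 (0.979), and Nlrp3 with Gm15832 (0.983), Rnf149 (0.983) and Tnfaip3 (0.967). Nearest to Il1r1 were Spns2 (0.976), Sncaip (0.976) and Npdc1 (0.972), and nearest to Il1r2 Gm47230 (0.955), Lmnb1 (0.952) and Lyst (0.951). Il18 ran with Clec12a (0.966), Capzb (0.947) and Unc93b1 (0.943), and Il1a with Kif1b (0.913), Lamp2 (0.910) and Ipmk (0.905). Casp1 ran with Smpdl3a (0.923), Pgap1 (0.913) and Dennd1a (0.897), and Gsdmd with Adap1 (0.901), Emp3 (0.891) and Arpc1b (0.890).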

How the data were processed

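Per the labels and the study's methods, livers were perfused and digested, and 10x Genomics 3' v3.1 libraries were aligned to mm10 with Cell Ranger 6.0.1 and analysed by the authors with Seurat 4.0.3. The headers of the deposited matrices name version 7.0.0 (filtered) and 4 (raw), so whether intronic reads were counted was not settled. The deposited values are raw UMI counts, not normalized. A further group of the study, given metformin, was not analysed here.

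The members, gene lists and gate were chosen with earlier results of these data known. Each kept cell took the lineage whose markers had the highest mean log count per 10000, with at least 3 markers detected and the next lineage at no more than 0.75 of it. Cells meeting this for no lineage, doublets of 2 lineages included, were left ungated. Both the gate's rule and the minimum of 5 type 17 markers were set after the data were seen. Counts were summed per library and type. Neutrophils, monocytes, macrophages, DC and endothelium, each with at least 50 cells in each library, were tested. Hepatocytes, B cells, NK cells and T cells outside the type 17 gate also had that many cells but were not tested. The tests used edgeR 4.0.16 in R 4.3.3 (quasi-likelihood, TMM, filterByExpr, group as the only term, 1 residual degree of freedom from the HFD pair), with Benjamini-Hochberg adjustment over all genes tested in a type. DESeq2 1.42.0 was an alternative. The study tested cells, but libraries were the units here. Standard errors are the fold change over the square root of F. A script tested on simulated data made all fits. All 10 genes were described in each type, and from the pathway list the 3 largest calls in each direction. Poisson and Clopper-Pearson intervals (95%) and the floor of 3 UMIs cover counting error only. The p-values rest on the spread between the HFD pair, which the fits share across genes, and no spread within NCD or JQF enters them. Alternatives were cell filters (200 genes, 10% mitochondrial UMIs), Scrublet in scanpy 1.11.5, Leiden clusters, 1 marker more, cells thinned to 1000 UMIs, other scalings and filters, and each HFD library left out. Leaving out the 3 highest cells was added after seeing the data.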

Additional observations from a re-analysis of the deposited data

How the results depend on the processing

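Of the 22 calls in HFD against NCD, 22 stayed past the threshold with cells of at least 200 genes, 21 each with library totals, no filter on low counts, at most 10% mitochondrial UMIs, Leiden clusters or 1 marker more, 17 with Scrublet doublets removed and 12 with DESeq2. With cells thinned to 1000 UMIs 11 of 21 stayed. The count in monocytes, 5, became 3 with DESeq2 and 2 with thinned cells. That in macrophages, 1, became 0 with library totals, 2 with DESeq2, at most 10% mitochondrial UMIs, Leiden clusters or 1 marker more, 3 with Scrublet or thinning, and 5 without the count filter. That in DC, 6, became 2 with DESeq2 or thinning, and that in endothelium, 4, became 2 with DESeq2 or thinning and 0 with Scrublet. In JQF against HFD the 0 calls became 3 in monocytes, 3 in macrophages and 2 in DC without the count filter, 2 in monocytes with Leiden clusters, 1 in monocytes with thinning, and 1 in DC with library totals. The cause was not tested. Directions turned for uncalled values of Il1a in monocytes (0.67, but -2.41 with Leiden clusters) and Il1b in endothelium (0.69, but -0.26 with Scrublet and -0.65 with thinning). The called log2 ratio of Il1r2 in monocytes, -3.81, was 0.03 without the 3 highest cells. Leaving out HFD replicate 1 or 2 in turn reversed no call, with the largest moves for Il1rn in endothelium (2.67 to 4.27), Il1b in DC (-2.28 to -3.80) and Il1a in endothelium (-1.68 to -2.77). No paired analysis was possible because the groups share only replicate number 1. Depth limits Il1r1 in myeloid cells, Il1f9 outside neutrophils, and every NCD value in monocytes, which rests on 60 cells.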
